A study of Mus musculus with 36 samples.

Results

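The Polycomb complex genes described here were 35 genes fixed by symbol, 6 for the core of Polycomb repressive complex 2 (PRC2), 5 for accessory subunits of PRC2, 2 for the catalytic subunits shared by all forms of PRC1, 11 for canonical PRC1 and 11 for variant PRC1. Each symbol matched 1 of the 54281 genes in the count and TPM tables, and all 35 members passed the filter on low counts. RNA was measured by bulk RNA-seq in 36 libraries, taken from male mouse embryonic stem cells (ESCs) before and during neurobasal differentiation, a serum-free protocol meant to give anterior neural progenitor cells (antNPCs) by day 5. The design asks how loss of TET1, an enzyme that oxidises methylated cytosine in DNA, or of its catalytic activity alone, alters this path. *Tet1* KO cells (lines KO1 and KO15) came from blastocysts of (B6 × 129S6)F1-Tet1tm1Koh mice and gave 2 libraries on each of days 0, 1, 2 and 4, 4 on day 3 and 3 on day 5. WT littermate lines (WT7 and WT34) gave the same numbers. *Tet1* MUT cells (lines CM59 and CM69, single clones edited from WT7 to carry a catalytically dead TET1) gave 2 libraries on each of days 3 and 5, and were set beside WT70, a line labelled only as WT, with 1 library per day. All lines were kept on embryonic fibroblast feeders with serum and LIF, depleted of feeders before plating, and given bFGF until day 3. Experiment 1 held KO and WT of days 0, 3 and 5, experiment 2 KO and WT of days 1 to 5, with KO1 and WT7 as its sole lines of day 5, and experiment 3 MUT and WT70. Replicates were lines and repeat differentiations of the same lines, so p-values measure the spread between these libraries and not between independently derived animals.

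Library totals were 10.1 M to 26.3 M estimated counts (median 14.6 M), of which the 35 members took 0.356% to 0.561%. The targeted gene bore out the labels: *Tet1* was at 28.9 to 83.1 CPM (counts-per-million, after TMM scaling) in the 15 KO libraries, against 108 to 1432 CPM in the 15 WT libraries. MUT libraries, whose edit leaves the transcript, had 158 to 320 CPM of *Tet1*, and WT70 had 169.5 and 254 CPM. The summed level of 12 naive pluripotency markers was 4571 to 4585 CPM in KO and 4197 to 4277 CPM in WT on day 0, and 35.7 to 180.3 CPM in KO and 78.0 to 161.5 CPM in WT on day 5. On day 5 the sum of 12 neural progenitor markers was 247 to 289.7 CPM in KO, against 748 to 790 CPM in WT, and that of 10 mesoderm markers was 487 to 598 CPM in KO, against 32.6 to 104 CPM in WT. In bulk RNA, fewer cells of a type and less RNA per cell cannot be told apart.

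Polycomb proteins keep developmental genes silent through histone marks. PRC2 methylates lysine 27 of histone H3, with EZH1 or EZH2 as its enzyme, EED and SUZ12 as its scaffold and RBBP4 or RBBP7 as histone-binding subunits, and its accessory subunits (the Polycomb-like proteins MTF2, PHF1 and PHF19, or JARID2 with AEBP2) guide it to chromatin. PRC1 ubiquitinates histone H2A through RING1 or RNF2, in canonical form with a CBX reader of the PRC2 mark and a polyhomeotic (PHC) subunit, and in variant form with RYBP or YAF2 and partners such as KDM2B, whose zinc finger binds unmethylated CpG. In ESCs these complexes sit on CpG-rich promoters of lineage genes, and subunits exchange as cells differentiate, with CBX7 known as a main reader in ESCs.

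The promoters of the members themselves were rich in CpG. RefSeq promoters (build GRCm38.p6, 250 bases before to 50 after the start) were found for 31 of the 35 members, and not for *Cbx2*, *Rybp*, *Yaf2* and *Pcgf1*, which are only named. Over 44 start sites of these members the median was 23 CpG dinucleotides and 64.3% GC, against 7 CpG and 52.7% GC over 32851 mouse promoters of the same length. The motif CACGTG (its own reverse complement), which the MGA partner MAX is known to bind, stood in 18.2% of the members' promoters and in 7.15% of all promoters, as a description of letters only. The other motif searched, TTTCCCGC or TTTGGCGC on either strand, stood in 6.82% of the members' promoters and in 1.565% of all promoters. Both motifs hold a CpG, and the promoters compared were not matched for CpG, so these shares do not set the members apart. Some of the 44 windows also overlap, as for *Kdm2b* and *Bcor*. Promoters are shown for the 3 members with the most negative KO against WT values on day 5 (*Phf19*, *Cbx7* and *Phc1*) and for *Rbbp7*, the core PRC2 member higher in KO on days 3, 4 and 5, with every CpG in capitals.
Cbx7 (chr15:79932597-79932896, minus strand, 33 CpG): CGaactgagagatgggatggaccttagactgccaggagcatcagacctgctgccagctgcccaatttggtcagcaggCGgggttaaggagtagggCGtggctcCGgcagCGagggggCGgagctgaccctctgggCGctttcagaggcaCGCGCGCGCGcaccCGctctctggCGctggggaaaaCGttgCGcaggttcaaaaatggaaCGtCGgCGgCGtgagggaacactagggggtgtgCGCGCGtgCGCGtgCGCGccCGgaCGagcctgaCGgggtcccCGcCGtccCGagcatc
Phc1 (chr6:122340178-122340477, minus strand, 9 CpG): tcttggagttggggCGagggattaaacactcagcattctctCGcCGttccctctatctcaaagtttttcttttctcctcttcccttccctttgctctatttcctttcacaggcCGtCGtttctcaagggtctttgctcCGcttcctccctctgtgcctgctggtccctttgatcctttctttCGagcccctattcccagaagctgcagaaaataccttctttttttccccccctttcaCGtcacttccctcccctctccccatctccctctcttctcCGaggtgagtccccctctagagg
Phf19 (chr2:34913927-34914226, minus strand, 38 CpG): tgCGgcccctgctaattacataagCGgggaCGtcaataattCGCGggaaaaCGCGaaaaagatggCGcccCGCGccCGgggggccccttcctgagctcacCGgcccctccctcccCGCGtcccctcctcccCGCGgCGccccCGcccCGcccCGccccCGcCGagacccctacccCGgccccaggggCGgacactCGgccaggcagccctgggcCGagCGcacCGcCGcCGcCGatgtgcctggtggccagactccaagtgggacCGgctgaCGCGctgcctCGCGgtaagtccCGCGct
Rbbp7 (chrX:162760122-162760421, plus strand, 38 CpG): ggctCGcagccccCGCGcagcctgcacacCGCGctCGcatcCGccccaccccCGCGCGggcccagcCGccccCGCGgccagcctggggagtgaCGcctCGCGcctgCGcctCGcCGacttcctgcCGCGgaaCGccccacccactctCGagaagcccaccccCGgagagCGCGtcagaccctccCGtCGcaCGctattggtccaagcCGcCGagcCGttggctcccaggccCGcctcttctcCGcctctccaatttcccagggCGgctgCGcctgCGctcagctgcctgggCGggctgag
The *Phc1* window held 9 CpG, below the members' median, while those of *Phf19* and *Rbbp7* held 38 each.

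Per transcript length, the members spanned a wide range in undifferentiated WT ESCs. The highest on day 0 were *Eed* at 247 ± 11.7 TPM (transcripts-per-million, which adjusts for length) and *Phc1* at 244 ± 40.9 TPM, and the lowest were *Scml2* at 0.487 ± 0.0751 TPM and *Cbx8* at 0.149 ± 0.0960 TPM (SD, n = 2 each). *Rbbp7*, *Jarid2*, *Rbbp4*, *Ezh2* and *Mtf2* also exceeded 100 TPM there, with means of 105 to 183 TPM. In the plot of all members by library, the group means of *Eed*, *Suz12*, *Mtf2* and *Jarid2* were higher on day 0 than on days 3 to 5 in both genotypes, and those of *Bmi1*, *Phc2*, *Yaf2* and *Bcorl1* were lower.

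**Figure D1:**
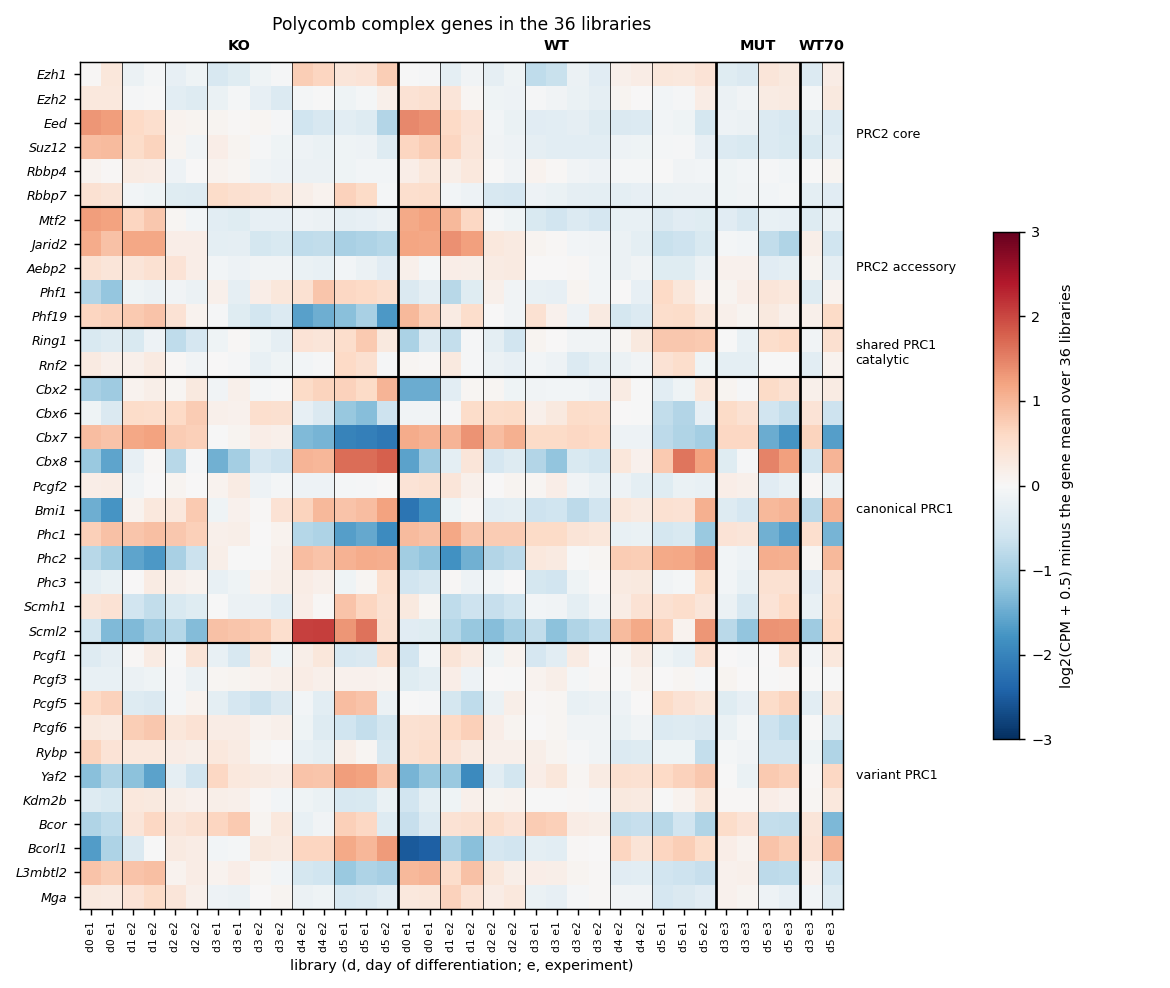
Each row is a member and each column a library, ordered by genotype, day (d) and experiment (e); colour gives log2(CPM + 0.5) minus the gene's mean over the 36 libraries. *Cbx7* has its lowest values in KO libraries of day 5, *Phc1* in KO and MUT libraries of day 5, and *Bcorl1* in the WT libraries of day 0.

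During the first 3 days most of the PRC2 core and the accessory genes *Mtf2*, *Jarid2* and *Phf19* fell in both genotypes. A member is said to have risen or fallen where its adjusted p was under 0.05 in edgeR's quasi-likelihood test. From day 0 to day 3, 25 of 35 members changed in KO cells (11 rose and 14 fell), where 43.3% of all 21601 genes tested changed, and 25 changed in WT cells (9 rose and 16 fell), where 45.5% of all genes changed. A log2 fold change over 1 in size was also reached by 10 members in KO and 9 in WT, and by 21.2% and 22.5% of all genes. The members' median log2 fold change was -0.10 in KO and -0.23 in WT, against a median of 0.04 over all genes in each. The same 11 members fell in KO and in WT (*Ezh1*, *Ezh2*, *Eed*, *Suz12*, *Mtf2*, *Jarid2*, *Phf19*, *Cbx7*, *Phc1*, *L3mbtl2* and *Mga*), the same 8 rose (*Cbx2*, *Bmi1*, *Phc2*, *Pcgf3*, *Yaf2*, *Kdm2b*, *Bcor* and *Bcorl1*), and no member changed in opposite directions. The share of all genes that changed alike in both genotypes was not counted, so this agreement cannot be set against it. By role, 4 of 6 core PRC2 genes fell in KO and 6 of 6 in WT, and 4 of 5 accessory genes fell in KO and 3 of 5 in WT.

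*Mtf2*, which encodes the main Polycomb-like protein of ESCs, had 149.6, 145, 157 and 158 CPM in KO on day 3, against 444 and 432 CPM in KO on day 0. In WT it had 137, 126, 141 and 132 CPM on day 3, against 414 and 430.2 CPM on day 0. No library of day 3 reached the lowest of day 0 in either genotype. The log2 fold change from day 0 to day 3 was -1.56 ± 0.07 in KO (SE, adjusted p = 4.9e-15) and -1.69 ± 0.07 in WT (adjusted p = 8.69e-16).

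*Eed*, the subunit that reads the mark PRC2 itself lays down, fell in steps. Its level was 243 and 234 CPM in KO on day 0, 146 and 138 on day 1, 104 and 102 on day 2 and 104, 99.0, 101 and 94.3 on day 3. In WT it was 264 and 251 CPM on day 0, 148 and 129 on day 1, 91.1 and 84.8 on day 2 and 76.5, 77.7, 80.5 and 73.6 on day 3. The fall over these days was -1.16 ± 0.09 in KO and -1.64 ± 0.09 in WT, and the difference of the effects was 0.48 ± 0.13 on the log2 scale (adjusted p = 0.0214). It did not pass without KO replicate 2 of day 0 (adjusted p = 0.0873) or WT replicate 1 of day 0 (adjusted p = 0.0803), nor without the experiment term (adjusted p = 0.0914).

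*Jarid2*, which links PRC2 to ubiquitinated H2A, had 258, 262, 219.7 and 229 CPM in KO on day 3, against 680.4 and 577 CPM in KO on day 0 (-1.35 ± 0.08, adjusted p = 4.21e-13). WT libraries had 333, 324, 300.1 and 293 CPM on day 3, against 717 and 711 CPM on day 0 (-1.17 ± 0.08, adjusted p = 5.70e-12). No day 3 library reached a day 0 library of its genotype. The change within the first day did not pass (0.22 in KO and 0.17 in WT), and on day 2 against day 1 *Jarid2* fell by 0.96 in KO and by 1.00 in WT. Day 0 was in experiment 1 and day 1 in experiment 2, so first-day changes of any member rest on the experiment term. *Phf1*, another Polycomb-like subunit, passed in KO, with 8.02, 5.83, 8.34 and 9.24 CPM on day 3, against 3.63 and 2.91 CPM on day 0 (1.22 ± 0.21, adjusted p = 3.10e-05), and did not pass in WT (0.21 ± 0.20). The difference of these effects was 1.01 ± 0.27 (adjusted p = 0.0225) and did not pass without KO replicate 2 of day 0 (0.89, adjusted p = 0.139) or WT replicate 2 of day 0 (0.94, adjusted p = 0.114).

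The enzymes moved less. *Ezh2* fell by 0.53 in KO and by 0.60 in WT from day 0 to day 3, and *Ezh1* by 0.62 in KO and by 0.64 in WT. *Ezh2* exceeded *Ezh1* by TPM in every group, with 113 ± 18.3 TPM of *Ezh2* and 11.3 ± 1.65 TPM of *Ezh1* in KO on day 5, and 121 ± 24.2 and 9.68 ± 3.21 TPM in WT on day 5 (SD, n = 3). *Rbbp4*, shared with other chromatin complexes, ranged little, with 382 to 511 CPM in KO libraries of any day and 387 to 545 CPM in WT libraries.

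Several PRC1 genes rose over the same days. *Bcorl1*, whose product joins the PCGF1 form of variant PRC1, had 29.2, 29.6, 37.8 and 37.1 CPM in KO on day 3, against 9.40 and 15.9 CPM in KO on day 0. In WT it had 25.0, 24.9, 31.8 and 31.3 CPM on day 3, against 4.99 and 5.25 CPM on day 0. Every day 3 library exceeded every day 0 library of its genotype. Its rise of 1.29 ± 0.16 in KO was smaller than that of 2.34 ± 0.18 in WT, by -1.05 ± 0.23 (adjusted p = 0.00482). The call of this difference is lost without KO replicate 2 of day 0 (KO15), when it is -0.60 (adjusted p = 0.139), and with limma on log2(TPM + 1), when it is -0.19 (adjusted p = 0.856).

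*Bmi1*, the PCGF4 subunit of canonical PRC1, had 17.1, 20.5, 19.0 and 25.2 CPM in KO on day 3, against 6.48 and 5.11 CPM in KO on day 0. Levels in WT were 12.0, 12.2, 10.7 and 12.4 CPM on day 3, against 3.66 and 4.89 CPM on day 0. Within the first day its change was 1.65 ± 0.22 in KO and 1.79 ± 0.23 in WT, values that rest on the experiment term.

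*Yaf2*, the paralog of *Rybp* in variant PRC1, had 27.6, 22.3, 21.4 and 20.7 CPM in KO on day 3, against 7.19 and 9.35 CPM in KO on day 0 (1.55 ± 0.18, adjusted p = 1.24e-07). In WT it had 20.3, 22.8, 18.6 and 21.1 CPM on day 3, against 6.41 and 7.79 CPM on day 0 (1.60 ± 0.19, adjusted p = 9.29e-08). Its change within the first day did not pass (-0.24 in KO and -0.08 in WT). *Bcor*, the corepressor that joins PCGF1, had 153, 167, 102 and 121 CPM in KO on day 3, against 51.3 and 56.9 CPM in KO on day 0 (1.59 ± 0.14, adjusted p = 5.35e-10). WT levels were 164, 160.3, 113 and 109 CPM on day 3, against 60.2 and 73.2 CPM on day 0 (1.28 ± 0.13, adjusted p = 1.42e-08). The day 3 libraries of experiment 1 stood above those of experiment 2 in both genotypes, and all of them above day 0.

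*Phc2*, a paralog of *Phc1*, had 61.9, 53.9, 54.0 and 60.5 CPM in KO on day 3, against 30.5 and 26.2 CPM in KO on day 0 (1.04 ± 0.12, adjusted p = 3.86e-08). In WT it had 68.3, 66.0, 54.0 and 57.1 CPM on day 3, against 26.1 and 23.7 CPM on day 0 (1.32 ± 0.12, adjusted p = 7.40e-10). *Cbx2*, a chromodomain reader of canonical PRC1, had 64.9, 66.7, 66.0 and 62.8 CPM in WT on day 3, against 24.5 and 24.8 CPM in WT on day 0 (1.32 ± 0.14, adjusted p = 3.30e-08), and rose by 0.94 ± 0.14 in KO. *Scml2* passed in KO, where it had 9.41, 9.04, 8.75 and 7.18 CPM on day 3, against 3.20 and 1.65 CPM on day 0 (1.81 ± 0.35, adjusted p = 1.15e-04), and not in WT (-0.62 ± 0.34). The difference of these effects was 2.43 ± 0.46 (adjusted p = 0.00163).

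From day 3 to day 5 the 3 largest changes in each genotype were those of canonical PRC1 genes (*Cbx8*, *Cbx7* and *Phc1* in KO, *Cbx8*, *Scml2* and *Cbx7* in WT). In KO 26 of 35 members changed (14 rose and 12 fell), where 50.7% of all genes did, and in WT 25 changed (14 rose and 11 fell), where 42.9% of all genes did. Of the 11 canonical PRC1 genes, 6 rose and 3 fell in KO, and 6 rose and 4 fell in WT. In both genotypes 12 members rose (*Ezh1*, *Phf1*, *Ring1*, *Rnf2*, *Cbx8*, *Bmi1*, *Phc2*, *Phc3*, *Scmh1*, *Pcgf5*, *Yaf2* and *Bcorl1*) and 8 fell (*Jarid2*, *Cbx6*, *Cbx7*, *Phc1*, *Pcgf6*, *Rybp*, *L3mbtl2* and *Mga*). Again the share of all genes that changed alike in both genotypes was not counted. Past a log2 fold change of 1 in size were 9 members in KO and 7 in WT, and 22.3% and 15.5% of all genes. *Suz12* alone changed in opposite directions, by -0.29 ± 0.06 in KO and 0.16 ± 0.06 in WT, where the call was lost without WT replicate 1 or 2 of day 3 (adjusted p = 0.0610 and 0.153) and with cell line as a replicate block (adjusted p = 0.0582). The KO effect itself differed between days 5 and 3 for 12 members (3 of them by over 1), where 22.6% of all genes did (9.43% by over 1). Between days 3 and 0 it differed for 8 members (4 by over 1), where 7.18% of all genes did (2.57% by over 1). MUT cells also changed in 26 members over these days (14 rose and 12 fell), where 39.8% of all genes changed.

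*Cbx8*, a chromodomain reader nearly silent in ESCs, had 7.38, 7.29 and 7.96 CPM in KO on day 5, against 0.398, 0.720, 1.23 and 1.10 CPM in KO on day 3. The WT libraries had 3.71, 6.95 and 5.13 CPM on day 5, against 0.833, 0.575, 1.28 and 1.182 CPM on day 3. Its log2 fold change was 3.23 ± 0.31 in KO (adjusted p = 2.14e-09) and 2.55 ± 0.31 in WT (adjusted p = 2.23e-07), the largest rise of any member over these days. Values on day 5 exceeded every value of day 3 in both genotypes.

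The falls were led by *Cbx7*, at -2.19 ± 0.08 in KO (adjusted p = 8.33e-17) and -1.50 ± 0.08 in WT (adjusted p = 7.42e-14), and by *Phc1*, at -1.85 ± 0.09 in KO (adjusted p = 5.42e-15) and -1.21 ± 0.08 in WT (adjusted p = 2.28e-11). *Cbx6*, another reader, had 43.3, 39.6 and 62.2 CPM in KO on day 5, against 107, 105, 135 and 135 CPM in KO on day 3 (-1.26 ± 0.10, adjusted p = 1.07e-10), and fell by 0.94 ± 0.10 in WT. *L3mbtl2*, of the PCGF6 form of variant PRC1, had 40.4, 46.3 and 43.6 CPM in KO on day 5, against 94.1, 100.5, 90.9 and 82.9 CPM in KO on day 3 (-1.10 ± 0.07, adjusted p = 1.72e-12), and fell by 0.77 ± 0.07 in WT.

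Of the members that rose, *Bmi1* had 25.8, 25.3 and 39.6 CPM in WT on day 5, against 12.0, 12.2, 10.7 and 12.4 CPM in WT on day 3 (1.38 ± 0.14, adjusted p = 8.35e-09), and rose by 0.93 ± 0.13 in KO. *Phc2* had 112, 118 and 117 CPM in KO on day 5 (1.00 ± 0.09 against day 3, adjusted p = 6.79e-10) and 120.4, 123 and 136 CPM in WT on day 5 (1.04 ± 0.09, adjusted p = 7.67e-10). All of these exceeded the day 3 values of their genotype. *Bcorl1* rose by 1.09 ± 0.12 in KO (adjusted p = 2.49e-08) to 69.2, 62.3 and 76.2 CPM, and by 0.83 ± 0.12 in WT. *Pcgf5*, of the PCGF5 form of variant PRC1, had 29.4, 27.7 and 13.4 CPM in KO on day 5, against 12.3, 10.5, 9.51 and 11.2 CPM in KO on day 3 (1.02 ± 0.14, adjusted p = 8.65e-07), the library of experiment 2 being the lowest on day 5. *Scml2* rose in WT by 1.89 ± 0.27 (adjusted p = 2.84e-06), and its KO change of 0.50 ± 0.25 did not pass. On log2(TPM + 1) the rise of *Scml2* in WT (0.70, adjusted p = 0.0999) and that of *Pcgf5* in KO (0.45, adjusted p = 0.166) did not pass in limma.

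*Pcgf1*, the subunit that names the PCGF1 form, changed in none of the 6 comparisons of KO with WT and in none of these 4 day comparisons, at 4.91 to 10.0 CPM in KO and 4.58 to 9.64 CPM in WT.

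Consecutive days were also compared, with 2 libraries per genotype on days 0, 1, 2 and 4, 4 on day 3 and 3 on day 5, so that the counts of these comparisons cannot be ranked. Day 0 was in experiment 1 alone and days 1, 2 and 4 in experiment 2 alone. Day 1 against day 0 thus rests on the experiment term, and comparisons that involve day 3 or day 5 do so in part. In KO 20 members changed on day 1 against day 0 (13 rose and 7 fell), 14 on day 2 (3 and 11), 13 on day 3 (4 and 9), 24 on day 4 (12 and 12) and 10 on day 5 (5 and 5), each against the day before. The shares of all genes were 33.3%, 30.4%, 14.6%, 29.9% and 20.4%. In WT 16 members changed on day 1 (10 rose and 6 fell), 16 on day 2 (5 and 11), 13 on day 3 (4 and 9), 17 on day 4 (10 and 7) and 10 on day 5 (5 and 5), and of all genes 31.3%, 32.6%, 16.7%, 18.2% and 9.01%.

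Counted over the time course, 3, 1, 2, 14, 12 and 16 of the 35 members differed between KO and WT on days 0, 1, 2, 3, 4 and 5. The share of all genes that did so was 4.00%, 2.88%, 1.72%, 15.8%, 16.4% and 31.2% on the same days. Members that also had a log2 fold change over 1 in size numbered 1, 0, 0, 1, 3 and 4, where 0.866%, 0.634%, 0.616%, 3.96%, 7.68% and 11.7% of all genes passed. On day 5, 7 members were higher and 9 lower in KO. By role these were 1 higher and 1 lower of 6 core PRC2 genes, 2 lower of 5 accessory genes, none of the 2 catalytic PRC1 genes, 2 higher and 3 lower of 11 canonical PRC1 genes, and 4 higher and 3 lower of 11 variant PRC1 genes. The members' median log2 fold change on day 5 was 0.06, against -0.01 over all genes. *Rbbp7*, *Jarid2*, *Phf19*, *Cbx7* and *Phc1* differed in the same direction on days 3, 4 and 5, and *Eed* and *Pcgf6* passed on days 3 and 5 in opposite directions. Called alike on days 4 and 5 were also *Cbx2* and *Bcor*, higher in KO, and *Kdm2b*, lower in KO. On day 5 *Kdm2b* had 106.5, 108.2 and 128.7 CPM in KO, against 147.6, 161 and 188.7 CPM in WT. Without KO replicate 2 of day 4 the day 4 count was 6.

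**Figure D2:**
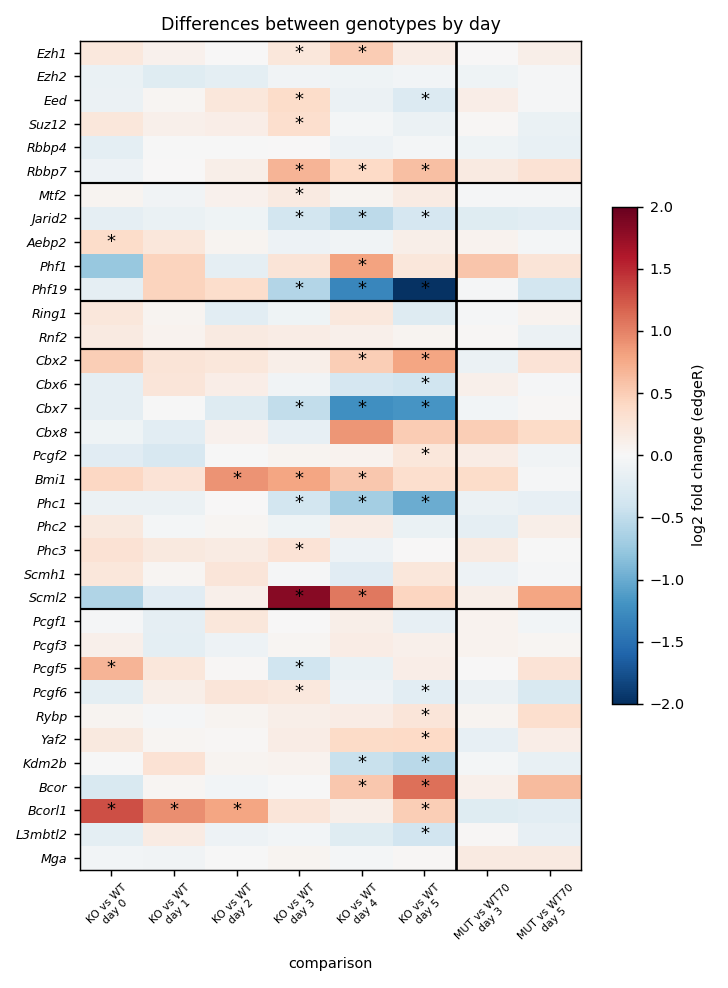
Colour gives the log2 fold change of each member (rows) in KO against WT on days 0 to 5 and in MUT against WT70 on days 3 and 5 (columns); asterisks mark an adjusted p under 0.05 in edgeR's test. Asterisks are few on days 0 to 2, 14, 12 and 16 on days 3 to 5, and absent in the MUT columns.

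Of the members that differed between KO and WT, *Cbx7* and *Phc1* were lower in KO on days 3, 4 and 5. *Cbx7* had 97.1 to 111 CPM in the 4 KO libraries of day 3, against 145 to 149 CPM in the 4 WT libraries. On day 4 it had 38.2 and 36.7 CPM in KO, against 87.7 and 87.5 CPM in WT, and on day 5 23.9, 23.2 and 21.6 CPM in KO, against 56.2, 51.4 and 47.5 CPM in WT. The groups did not overlap on these days. The log2 fold change was -0.48 ± 0.07 on day 3 (adjusted p = 7.44e-06), -1.23 ± 0.10 on day 4 (adjusted p = 2.19e-09) and -1.17 ± 0.08 on day 5 (adjusted p = 7.41e-11). Before day 3 it did not pass, with -0.19, -0.01 and -0.27 on days 0, 1 and 2. On log2(TPM + 1) the day 3 value was -0.41 and did not pass (limma, adjusted p = 0.141), while those of days 4 and 5 passed.

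*Phc1*, whose SAM domain lets canonical PRC1 assemble into polymers, had 214 and 204 CPM in KO on day 4, against 333 and 339 CPM in WT, and 124, 134 and 104 CPM in KO on day 5, against 268, 282 and 178 CPM in WT. The lowest WT library of day 5 was replicate 3 of experiment 2 (177.6 CPM), which still exceeded every KO library. The log2 fold change was -0.36 ± 0.08 on day 3, -0.68 ± 0.11 on day 4 and -1.0 ± 0.09 on day 5 (adjusted p = 2.54e-09). The KO effect differed between day 5 and day 3 for *Phc1* by -0.64 ± 0.11 (adjusted p = 1.77e-04) and for *Cbx7* by -0.69 ± 0.11 (adjusted p = 3.01e-05).

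*Phf19*, the Polycomb-like subunit that binds methylated lysine 36 of histone H3, was low throughout. On day 5 it had 2.13, 2.67 and 1.41 CPM in KO, against 8.55, 8.58 and 7.35 CPM in WT, a log2 fold change of -1.97 ± 0.17 (adjusted p = 1.90e-09). On day 4 it had 1.50 and 1.76 CPM in KO, against 3.86 and 4.22 CPM in WT (-1.31 ± 0.22). The WT level rose from day 4 to day 5 by 0.79 ± 0.20, while the KO change over that day was 0.13 ± 0.23 and did not pass. The estimated TPM of *Phf19* gave a weaker difference: with limma on log2(TPM + 1) the day 5 value was -0.67 (adjusted p = 0.363) and that of day 4 was -0.58 (adjusted p = 0.645). From day 3 to day 5 in KO, *Phf19* fell by 1.15 in counts but not in TPM, where the value was 0.01.

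**Figure D3:**
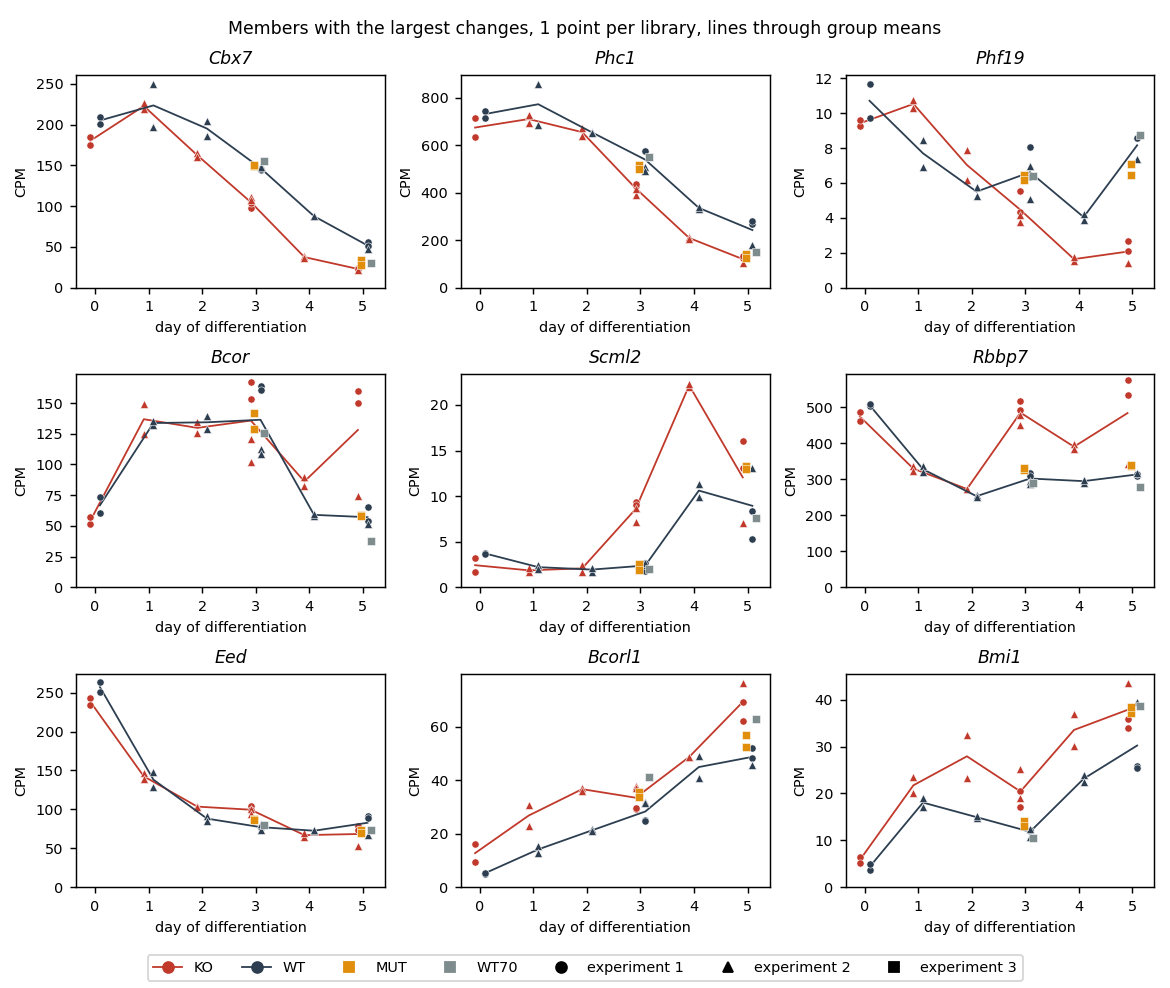
CPM (y axis, from 0) of 9 members by day (x axis), 1 point per library, with lines through the KO and WT group means; circles, triangles and squares are experiments 1, 2 and 3. KO points of *Cbx7* lie below WT points from day 3, those of *Rbbp7* above them from day 3, and the MUT and WT70 squares of *Phc1* on day 5 lie below every WT point of that day.

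Beyond a log2 fold change of 1, *Bcor* was the member higher in KO on day 5. It had 159.8, 150.2 and 74.3 CPM in KO on day 5, against 54.1, 65.4 and 51.7 CPM in WT (1.11 ± 0.12, adjusted p = 5.31e-08). The lowest KO value was that of experiment 2 (74.3 CPM), where the matching WT library had 51.7 CPM. Within experiment 1 alone the log2 fold change was 1.39. On day 3 its difference did not pass (0.00 ± 0.10 in size), and the KO effect grew by 1.11 ± 0.15 from day 3 to day 5 (adjusted p = 5.61e-06). In WT *Bcor* fell by 1.32 ± 0.11 over these days, while in KO the change was -0.21 ± 0.10 and did not pass.

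*Scml2*, a Sex comb on midleg relative carried on the X chromosome like *Rbbp7*, *Bcor* and *Bcorl1*, was higher in KO on days 3 and 4. On day 3 it had 9.41, 9.04, 8.75 and 7.18 CPM in KO, against 2.71, 1.80, 2.40 and 2.66 CPM in WT (1.83 ± 0.25, adjusted p = 9.71e-06). On day 4 it had 21.9 and 22.3 CPM in KO, against 9.87 and 11.3 CPM in WT (1.06 ± 0.32, adjusted p = 0.0237), a call lost when any 1 library of that day is left out (adjusted p = 0.081 to 0.165). On day 5 it had 13.1, 16.1 and 7.03 CPM in KO, against 8.40, 5.33 and 13.1 CPM in WT, and the groups overlapped. *Scml2* was below 1 TPM on day 0 in KO and in WT, and at 6.12 ± 0.159 TPM in KO and 3.45 ± 0.470 TPM in WT on day 4 (SD, n = 2).

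*Rbbp7* was the core PRC2 gene that differed on days 3, 4 and 5. On day 3 it had 518, 491, 478 and 451 CPM in KO, against 318, 309, 294 and 287 CPM in WT (0.68 ± 0.07, adjusted p = 2.93e-07). On day 5 it had 575, 533 and 343 CPM in KO, against 309.7, 314 and 316 CPM in WT (0.61 ± 0.09), the KO library of experiment 2 being the lowest of the KO libraries. *Eed* and *Suz12* were higher in KO on day 3 (0.37 ± 0.08 and 0.33 ± 0.06), and *Eed* was lower on day 5 (-0.28 ± 0.09). The day 5 call was lost without KO replicate 3 (-0.13, adjusted p = 0.266), WT replicate 1 (adjusted p = 0.133) or WT replicate 2 (adjusted p = 0.0894). *Ezh1* also passed as higher in KO on days 3 and 4, but not on day 5. On day 4 it had 60.6 and 56.8 CPM in KO, against 39.9 and 42.5 CPM in WT, while on day 3 its KO and WT libraries overlapped. *Ezh2* and *Rbbp4* passed on no day, with KO against WT values of -0.24 to -0.06 and -0.20 to 0.00.

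In ESCs before differentiation 3 members differed, all higher in KO: *Bcorl1*, *Pcgf5* and *Aebp2*. *Bcorl1* had 9.40 and 15.9 CPM in KO on day 0, against 4.99 and 5.25 CPM in WT (1.29 ± 0.20, adjusted p = 3.08e-04). It remained higher on day 1 (0.93 ± 0.17) and day 2 (0.79 ± 0.16). On day 0 the higher KO library was KO15, and without it the value was 0.86 (adjusted p = 0.0230). *Pcgf5* had 23.1 and 24.7 CPM in KO, against 15.0 and 14.9 CPM in WT on day 0 (0.68 ± 0.18, adjusted p = 0.0323), a call lost when any 1 library of that day is left out (adjusted p = 0.0977 to 0.225). *Aebp2* had 151 and 140.2 CPM in KO, against 121 and 104 CPM in WT (0.37 ± 0.09, adjusted p = 0.012), a call lost without KO replicate 1 (adjusted p = 0.145) or WT replicate 2 (adjusted p = 0.279).

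On day 1 *Bcorl1* alone passed, and *Pcgf2* had the next smallest p, at -0.32 ± 0.10 (adjusted p = 0.0919). On day 2 *Bmi1* also passed, with 23.4 and 32.5 CPM in KO, against 14.8 and 15.1 CPM in WT (0.90 ± 0.18, adjusted p = 0.00596). *Bmi1* was again higher in KO on day 3 (0.78 ± 0.13) and day 4 (0.54 ± 0.17). These early calls rest on 2 libraries a group: leaving out any of 3 of the 4 day 2 libraries left 0 members called, and on day 1 the count was 0 without KO replicate 2 and 7 without WT replicate 2. On log2(TPM + 1) these values did not pass in limma, with 0.54, 0.67 and 0.36 for *Bcorl1* on days 0, 1 and 2 (adjusted p = 0.318, 0.156 and 0.704), 0.50 for *Pcgf5* and 0.34 for *Aebp2* on day 0, and 0.57 for *Bmi1* on day 2.

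Markers of other cell types and proliferation genes also differed between KO and WT on some days. Their part in the KO differences of the members was not tested. The share of all genes that differed was 15.8% on day 3 and 31.2% on day 5. On day 5, 11 of 12 neural progenitor markers were lower and 1 higher in KO, and 10 of 10 mesoderm and 8 of 8 endoderm markers were higher, none of these 30 genes being at 0 in every KO or every WT library of that day. Of 14 proliferation genes 11 were lower in KO on day 5, with a summed level of 3717 to 4101 CPM in KO, against 4680 to 4815 CPM in WT. On day 3, 7 of 8 primitive streak markers were already higher in KO, with a sum of 500.4 to 826 CPM in KO, against 13.0 to 34.1 CPM in WT. Higher in KO on day 3 were also 1 of 10 mesoderm and 2 of 8 endoderm markers, with 0 lower. Of the 14 proliferation genes 2 were higher and 0 lower on day 3. The proliferation genes then summed to 3925 to 4405 CPM in KO, against 3958 to 4276 CPM in WT. Feeder fibroblast markers summed to 84.2 to 109.6 CPM in KO and 104.5 to 108 CPM in WT on day 0, when *Bcorl1*, *Pcgf5* and *Aebp2* differed. They summed to 31.1 to 34.6 CPM in KO and 47.4 to 50.2 CPM in WT on day 3, to 15.2 to 16.3 CPM in KO and 43.6 to 49.8 CPM in WT on day 4, and to 38.8 to 67.7 CPM in KO and 87.8 to 96.7 CPM in WT on day 5. Of the 7 feeder markers tested, 3 were higher and 2 lower in KO on day 5. On day 3, 5 of 12 naive pluripotency markers were higher in KO and none lower, with a sum of 275.2 to 336.4 CPM in KO, against 121.9 to 171.8 CPM in WT. Of 8 formative and primed markers 1 was higher and 4 lower in KO on day 3, with a sum of 2939 to 3507 CPM in KO, against 3789 to 4251 CPM in WT. On day 5, 2 of these 8 were higher and 5 lower in KO, and their sum was 620.0 to 801.1 CPM in KO, against 927.0 to 1076 CPM in WT.

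Paralogs were compared by TPM. *Cbx7* led *Cbx6*, *Cbx2* and *Cbx8* on days 0 to 3 in KO and in WT. In KO on day 4 the order became *Cbx6* (15.0 ± 0.610 TPM), *Cbx2* (14.1 ± 0.927), *Cbx7* (8.69 ± 0.150) and *Cbx8*, and on day 5 *Cbx2* led at 16.1 ± 3.55 TPM, against 7.48 ± 3.17 for *Cbx6* and 6.14 ± 1.03 for *Cbx7*. In WT *Cbx7* still led on day 5 at 14.4 ± 1.05 TPM, but *Cbx6* at 14.1 ± 3.70 TPM did not differ from it beyond the spread. In MUT on day 5 the order was that of KO, with *Cbx2* at 12.9 ± 0.787 TPM, *Cbx6* at 9.46 ± 0.191 TPM and *Cbx7* at 8.07 ± 1.31 TPM (SD, n = 2), whereas in the WT70 library *Cbx7* led at 18.1 TPM. In counts *Cbx7* did not separate them, at 34.1 and 28.3 CPM in MUT and 30.6 CPM in WT70. The contrast of MUT with WT70 thus rests on TPM and on 1 WT70 library. *Cbx2* itself was higher in KO on day 5, with 113, 105 and 143 CPM in KO, against 56.7, 64.1 and 89.5 CPM in WT (0.78 ± 0.12, adjusted p = 1.12e-05). The sum of the 4 CBX genes was 32.5 ± 6.13 TPM in KO and 39.3 ± 5.74 TPM in WT on day 5, and 72.5 ± 16.2 TPM in KO and 69.1 ± 2.99 TPM in WT on day 0.

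*Phc1* led *Phc2* and *Phc3* in every group, with a narrowing margin. Its share of PHC transcripts in KO was 96.4 ± 1.14% on day 0 and 58.8 ± 5.62% on day 5, and in WT 97.0 ± 0.0625% on day 0 and 73.4 ± 8.28% on day 5. *Rnf2* exceeded *Ring1*, *Rybp* exceeded *Yaf2* and *Mtf2* exceeded *Phf1* and *Phf19* in every group. Among the PCGF genes *Pcgf2*, *Pcgf3* and *Pcgf6* held the upper 3 places in every KO and WT group but KO of day 5, where *Bmi1* (16.5 ± 2.86 TPM) stood above *Pcgf6* (12.8 ± 1.06 TPM). *Bmi1* also stood above *Pcgf6* on day 5 in MUT, at 16.3 ± 2.13 against 11.8 ± 0.907 TPM (SD, n = 2), and in WT70, at 15.5 against 14.2 TPM in its 1 library. In WT on day 5 *Bmi1* varied between 6.74 and 18.7 TPM, on both sides of *Pcgf6* at 14.3 to 15.0 TPM. *Bmi1* had been the lowest PCGF gene on day 0, at 1.79 ± 0.451 TPM in KO and 1.30 ± 0.617 TPM in WT. *Pcgf2* and *Pcgf3* did not differ beyond their spread on day 5, at 24.4 ± 2.09 and 23.1 ± 1.88 TPM in KO and 18.9 ± 1.42 and 20.3 ± 1.55 TPM in WT.

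**Figure D4:**
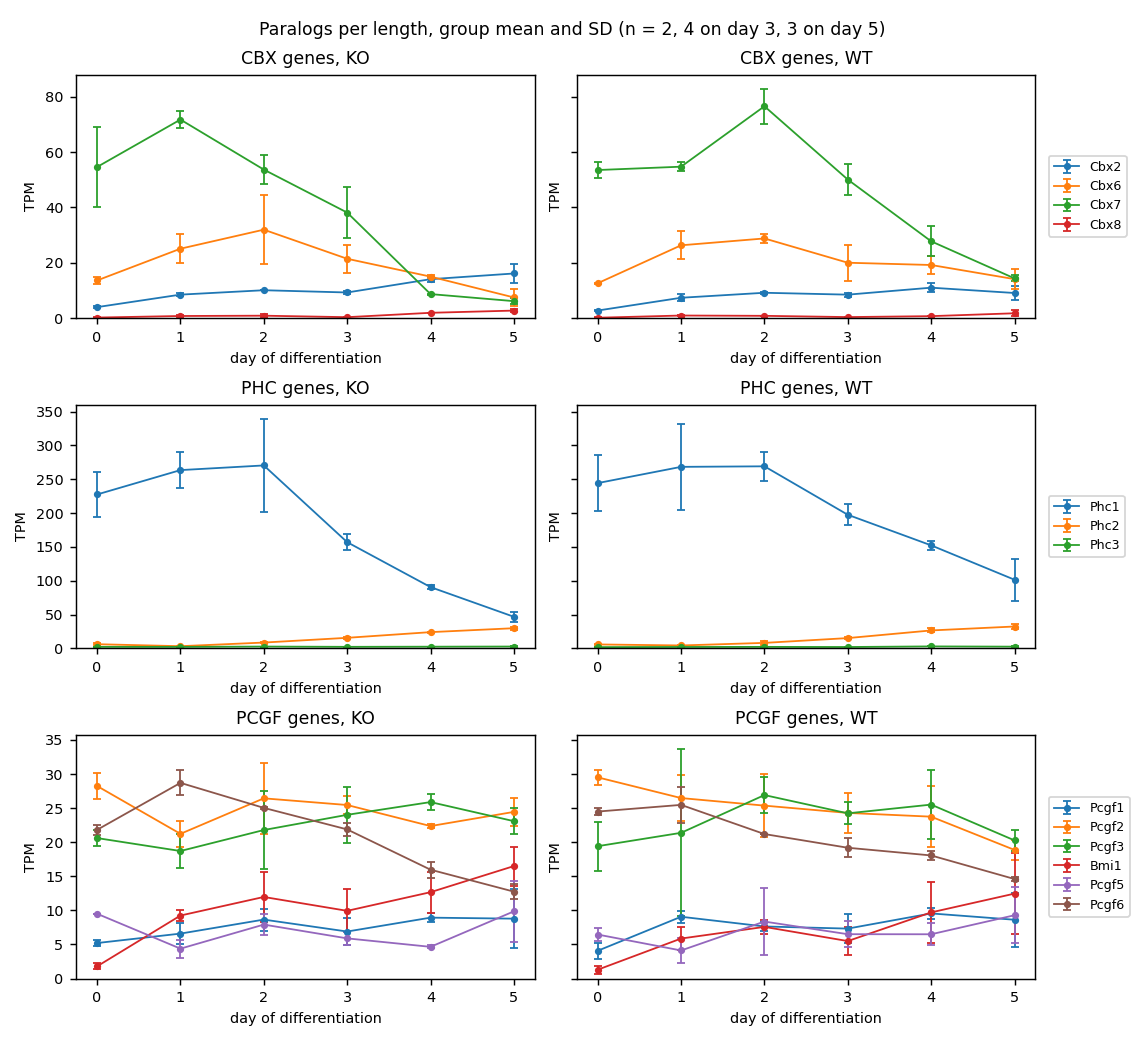
Group mean and SD of TPM (y axis) by day (x axis) for CBX, PHC and PCGF genes in KO (left) and WT (right). *Cbx7* falls below *Cbx6* and *Cbx2* in KO from day 4 and meets *Cbx6* in WT on day 5, and *Phc1* stays the highest PHC gene in each panel.

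In MUT cells no member passed against WT70 on day 3 or on day 5 in edgeR's test, where 0.199% and 3.25% of all genes did, and 0.148% and 1.87% with a log2 fold change over 1 in size. At an unadjusted p under 0.05 there were 2 members on day 3 and 4 on day 5, and DESeq2 called 0 and 2. *Jarid2* and *Phf1* had the smallest p on day 3, at -0.24 ± 0.11 (adjusted p = 0.765) and 0.56 ± 0.26 (adjusted p = 0.795). On day 5 *Bcor* had 58.9 and 57.7 CPM in MUT, against 37.7 CPM in WT70 (0.63 ± 0.18, adjusted p = 0.054), and *Pcgf6* had 51.9 and 46.7 CPM in MUT, against 61.0 CPM in WT70 (-0.31 ± 0.10, adjusted p = 0.105). With 1 WT70 library a day, its spread was taken from that of all groups in the fit. Sums of several marker lists also differed between MUT and WT70 on day 5, and their part was not tested. Mesoderm markers summed to 198 to 202 CPM in MUT, against 103 CPM in WT70. Endoderm markers had 120 to 131 against 27.5 CPM, and primitive streak markers 134 to 169 against 26.3 CPM. Lower in MUT were the sums of proliferation genes (4623 to 4632 against 5333 CPM) and neural progenitor markers (685 to 753 against 811.5 CPM). That of formative and primed markers was also lower (668 to 750 against 963 CPM).

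The KO effect on day 5 differed from the MUT effect for 3 members, where 5.94% of all genes differed. Of these members 2 differed by over 1, as did 3.62% of all genes. The difference was -1.61 ± 0.29 for *Phf19* (adjusted p = 7.79e-04), -1.20 ± 0.15 for *Cbx7* (adjusted p = 1.08e-05) and -0.84 ± 0.16 for *Phc1* (adjusted p = 0.00139). On day 3 no member differed, where 0.597% of all genes did (0.394% by over 1), with 7 members at an unadjusted p under 0.05 and 1 called by DESeq2. *Cbx7* and *Phc1* were also low in WT70. *Cbx7* on day 5 had 34.1 and 28.3 CPM in MUT and 30.6 CPM in WT70, and *Phc1* had 142 and 124 CPM in MUT and 148 CPM in WT70, all below the WT7 and WT34 libraries of that day. Against WT7 and WT34, MUT cells were lower in *Cbx7* (-0.73, adjusted p = 6.41e-06) and in *Phc1* (-0.94, adjusted p = 8.15e-07). That comparison sets experiment 3 against experiments 1 and 2, so genotype and experiment cannot be told apart in it. With limma on log2(TPM + 1) the differences of the effects were -0.06 for *Phf19* and -0.03 for *Cbx7* and did not pass, nor did that of *Phc1* (adjusted p = 0.103), the TPM of *Cbx7* being 8.99 and 7.14 in MUT and 18.1 in WT70 on day 5.

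Of 22 other PRC1 partners 3 were higher and 5 lower in KO on day 5, with *Sfmbt1* (-0.88 ± 0.14) and *Wdr5* (-0.33 ± 0.06) of smallest p. Of 8 genes of the PR-DUB complex, which removes ubiquitin from H2A, 3 were higher and 1 lower, with *Foxk1* (0.90 ± 0.11) and *Asxl3* (1.43 ± 0.20) of smallest p. Of 3 H3K27 demethylase genes 2 were higher in KO on day 5, among them *Kdm6b* (0.74 ± 0.09). Of 15 genes of the Trithorax COMPASS complexes, which methylate lysine 4 of histone H3, 3 were higher and 3 lower. These counts stand beside the 31.2% of all genes that differed on day 5. During the first 3 days in WT, *Epop*, another PRC2 partner of ESCs, fell by 1.80 ± 0.15.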

How the data were processed

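RNA was sequenced from 36 libraries (stranded mRNA kit, single-end 50-base reads). Per the labels and the study's methods, the authors removed adapters by Trim Galore 0.6.4, estimated transcript abundance on GENCODE M23 (mm10) by Salmon 0.14.1 and summed transcripts per gene with tximport 1.18.0. They deposited expected counts, which are estimates (73.8% were whole), and the authors' TPM values. Salmon divides reads of similar copies by estimate, so levels of paralogs with shared sequence are uncertain.

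Expected counts were rounded and tested with edgeR 4.0.16 in R 4.3.3 (quasi-likelihood F test, TMM scaling). Genes passed filterByExpr with a minimum count of 10 and a minimum total of 15, which left 21601 genes. A single fit held 16 group means and a term for experiment 2 against experiment 1, with 19 residual degrees of freedom. P-values were adjusted by Benjamini and Hochberg over all tested genes, and the threshold was 0.05. Log2 fold changes are given ± SE, and levels ± SD. The experiment term leaves MUT and WT70 (experiment 3) comparable only with each other. Libraries held 10.1 M to 26.3 M counts.

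The results were recomputed with RLE size factors, DESeq2 1.42.0, no filter on low counts, limma 3.58.1 on log2 of TPM with a pseudocount of 1 or 0.1, no experiment term, single experiments, only the compared libraries, summed libraries per line, other WT controls for MUT, the cell line as a replicate block, and each library left out. All days of a genotype share the same cell lines, which is where the pairing comes from. Line differences correlated between days at -0.0729 to 0.0654 in KO and -0.0880 to 0.0658 in WT over all genes. Calculations were tested on simulated data.

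Members and gene lists were chosen with earlier results of these data known. Full statistics are given for members past the threshold with a log2 fold change over 1 in size, and for the 2 of smallest p in each comparison of genotypes, other genes being named after their values were seen. Sequences are from RefSeq (GRCm38.p6), matched by symbol.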

Additional observations from a re-analysis of the deposited data

Results flagged for a closer look

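The KO minus WT effect differed between day 5 and day 3 for 12 members in edgeR's test of the difference, where 22.6% of all genes did. The difference of log2 fold changes was positive for *Bcor* (1.11), *Cbx2* (0.67) and *Pcgf5* (0.53). It was negative for *Phf19* (-1.39), *Scml2* (-1.39), *Cbx7* (-0.69), *Eed* (-0.64), *Phc1* (-0.64), *Kdm2b* (-0.61), *Suz12* (-0.45), *Pcgf6* (-0.42) and *L3mbtl2* (-0.33). In experiment 1 on day 5, *Pcgf5* had 29.4 and 27.7 CPM in KO, against 22.9 and 20.8 CPM in WT. In experiment 2 it had 13.4 CPM in KO, against 19.4 CPM in WT.

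Between day 3 and day 0 the effect differed for 8 members, where 7.18% of all genes did. The difference was positive for *Scml2* (2.43), *Phf1* (1.01), *Rbbp7* (0.78), *Eed* (0.48) and *Pcgf6* (0.41), and negative for *Pcgf5* (-1.08), *Bcorl1* (-1.05) and *Aebp2* (-0.47). On day 5 the KO effect and the MUT effect differed for *Phf19* (-1.61), *Cbx7* (-1.20) and *Phc1* (-0.84).

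A single library stood apart from its group: *Scmh1*, a Polycomb gene of canonical PRC1, was at 14.3 CPM in WT replicate 3 of day 3, and at 16.4 to 16.6 CPM in the other WT libraries of that day. This was 1 of 70 tests, each of 1 member within the KO or the WT libraries of day 3, and chance alone gives about 1 in 20.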

How the results depend on the processing

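Over all alternatives and named members, 1006 of 1083 refits kept the direction and side of the threshold, 61 lost the call, 13 gained one and 3 reversed. The reversals were *Phf19* in KO on day 5 against day 3 on TPM (0.01 with a pseudocount of 1, 0.11 with 0.1) and *Bcor* in MUT on day 5 against WT7 and WT34 (-0.16). With a log2 fold change over 1 also required, KO against WT held 1, 0, 0, 1, 3 and 4 members on days 0 to 5, the day 3 and day 5 comparisons 10 and 9 in KO and 9 and 7 in WT, and the changes of the KO effect 3 (day 5 against day 3) and 4 (day 3 against day 0). On log2(TPM + 1), KO against WT held 1, 0, 0, 4, 6 and 10 members on days 0 to 5, KO on day 3 against day 0 held 16, the effect change from day 0 to day 3 held 1, and KO against MUT on day 5 held 0. A pseudocount of 0.1 gave 5 on day 4 and the same counts elsewhere. DESeq2 called 5 on day 0, 2 on day 1, 2 for MUT on day 5 and 1 for KO against MUT on day 3. Summed libraries gave 5, 3 and 9 on days 0, 1 and 3, 2 for MUT on day 5 and 1 for KO against MUT on day 3. With only the compared libraries fitted, 0 passed on day 1 and 1 on day 2, MUT against WT70 gave 3 and 7, the effect change from day 0 to day 3 gave 13, and KO against MUT on day 3 gave 5. Without a filter, MUT on day 5 gave 1 and KO against MUT gave 2 and 6. Experiment 1 alone gave 9 on day 0, and experiment 2 alone 6 on day 3. Against all WT libraries MUT gave 1 and 9, and against WT7 and WT34 4 and 12. The causes were not tested.

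When cell line entered the fit as a replicate block, MUT on day 5 gave 1 member (*Bcor*, adjusted p = 0.0474, against 0.0540 without the block), and no other count moved by over 1.5 times. Leaving out 1 library gave 1 to 2, 0 to 7, 0 to 1, 11 to 13, 6 to 10 and 12 to 18 members for KO against WT on days 0 to 5. It gave 0 to 0 for MUT on both days, 25 to 26 and 25 to 27 for KO on day 3 and day 5, 22 to 25 and 24 to 26 for WT, 10 to 13 and 4 to 8 for the effect changes, and 0 to 0 and 3 to 5 for KO against MUT. The count on day 0 was 1 without KO replicate 1 or WT replicate 2. The effect change from day 0 to day 3 held 4 without KO replicate 2 of day 0, and KO against MUT on day 5 held 5 without KO or WT replicate 3. Comparisons on days 0, 1, 2 and 4 rest on 2 libraries a group, and members under 1 TPM on day 0 (*Scml2*, *Cbx8*) on few counts. Within experiment 2 on day 5, *Cbx7* held 12.6% of CBX transcripts in KO and 30.2% in WT, and *Phc1* 53.2% of PHC transcripts in KO and 63.9% in WT.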
